A study of Caenorhabditis elegans with 2 samples.

Results

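The genes of the worm Myc/Max network and the gene hlh-30 were examined as places where the transcription factor HLH-11 was found on the genome of Caenorhabditis elegans. They are 6 of 19973 protein-coding genes, chosen by name: hlh-30, mml-1, mxl-2, mdl-1, mxl-1 and mxl-3. Each was given the stretch from 5000 bp upstream of its annotated start to its end, and every peak whose summit fell there was counted for it. HLH-11 belongs to the basic helix-loop-helix (bHLH) transcription factors and is the worm relative of mammalian AP-4. It was mapped by ChIP-seq through a GFP antibody in strain OP396, genotype unc-119(tm4063) III with the transgene wgIs396, from which HLH-11 is made with a C-terminal GFP-FLAG tag. The worms were whole L4 larvae of mixed sex, 53 hours old, from cultures that had been synchronised as starved L1 larvae, so signal from different tissues is summed. A single group of 2 biological replicates was analysed, with no second condition, and the sources used here do not give the promoter or copy number of the transgene.

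The products of these genes and HLH-11 read short sequences of the same family, the E-boxes of form CANNTG. In worms, as in mammals, Myc- and Max-type proteins work as pairs. MML-1, which resembles Myc and Mondo, pairs with the Mlx-like MXL-2, and MDL-1, which resembles Mad, pairs with the Max-like MXL-1. MXL-3 is a further Max-like protein that holds down lysosomal lipase genes in fed worms, and HLH-30, the TFEB homologue, turns on lysosome and autophagy genes when food runs out. CACGTG is the E-box usually linked to Myc, Max and TFEB, and CAGCTG the one linked to AP-4.

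HLH-11 peaks stood at 4 of the 6 genes, and for each of the 2 pairs of partners only 1 of the genes had a thresholded peak. In the list of 7863 peaks that the authors thresholded on the replicates, 26 summits fell at the members: 11 at hlh-30, 6 at mdl-1, 6 at mxl-3 and 3 at mml-1. mxl-2, whose protein pairs with MML-1, and mxl-1, whose protein pairs with MDL-1, had 0. Among all protein-coding genes 39.0% had a thresholded summit in the same kind of window. Of the 6208 genes whose window measured 6000 to 7000 bp, 31.5% did. That range was set after the windows of mdl-1, mxl-1, mxl-2 and mxl-3 were known, and of these mdl-1 and mxl-3 had summits. The windows of hlh-30 and mml-1, 25159 and 9602 bp, lie outside that range, and no share matched to them is given. With 6 members these shares were not tested, and with 2 pairs neither was the split within them. The number of summits was 0.435 per kb of window over the 6 members, against 0.0814 per kb over all genes.

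The sequences under 8 summits are shown because they hold an E-box of the Myc/Max or the AP-4 type, the sequences that the network's proteins and HLH-11 are known to read. They are all 6 summits with such an E-box within 50 bp, and hlh-30 rank 601 and mxl-3 rank 595, the strongest of those with one between 50 and 100 bp away. Each line gives 201 bases of build ce11 centred on the summit, written 5′ to 3′ on the strand of the gene, with every CACGTG and CAGCTG in capitals and all other bases in lower case. The bases were read from the RefSeq WBcel235 genome, the same assembly as ce11. Ranks follow the signal column that the authors deposited for each peak, with rank 1 the strongest of the thresholded list.
hlh-30, rank 313, chrIV:4026037-4026237, minus strand: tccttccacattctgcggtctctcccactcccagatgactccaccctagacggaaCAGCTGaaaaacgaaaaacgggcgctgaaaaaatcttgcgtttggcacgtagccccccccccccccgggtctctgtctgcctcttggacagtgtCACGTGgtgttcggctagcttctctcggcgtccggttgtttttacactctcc
hlh-30, rank 601, chrIV:4019985-4020185, minus strand: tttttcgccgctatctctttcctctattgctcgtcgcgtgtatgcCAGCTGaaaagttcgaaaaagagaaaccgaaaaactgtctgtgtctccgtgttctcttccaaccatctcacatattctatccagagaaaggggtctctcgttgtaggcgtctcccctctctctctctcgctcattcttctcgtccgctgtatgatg
mml-1, rank 639, chrIII:7376496-7376696, minus strand: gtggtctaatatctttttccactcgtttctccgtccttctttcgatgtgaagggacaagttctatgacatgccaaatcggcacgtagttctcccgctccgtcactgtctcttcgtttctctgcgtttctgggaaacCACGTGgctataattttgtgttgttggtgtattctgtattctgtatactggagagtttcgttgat
mdl-1, rank 62, chrX:6737680-6737880, plus strand: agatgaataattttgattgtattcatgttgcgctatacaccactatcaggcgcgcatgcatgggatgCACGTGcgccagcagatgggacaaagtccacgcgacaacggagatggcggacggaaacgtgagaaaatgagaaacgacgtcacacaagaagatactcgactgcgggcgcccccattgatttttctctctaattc
mdl-1, rank 170, chrX:6742175-6742375, plus strand: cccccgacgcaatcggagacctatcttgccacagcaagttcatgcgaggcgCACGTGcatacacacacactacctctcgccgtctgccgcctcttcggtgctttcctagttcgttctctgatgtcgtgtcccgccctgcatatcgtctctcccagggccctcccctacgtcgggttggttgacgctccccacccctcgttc
mdl-1, rank 2248, chrX:6741019-6741219, plus strand: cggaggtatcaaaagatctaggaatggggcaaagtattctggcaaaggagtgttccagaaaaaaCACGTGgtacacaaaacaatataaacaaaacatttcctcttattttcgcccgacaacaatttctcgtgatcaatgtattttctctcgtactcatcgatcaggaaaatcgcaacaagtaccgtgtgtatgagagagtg
mxl-3, rank 595, chrX:13353610-13353810, minus strand: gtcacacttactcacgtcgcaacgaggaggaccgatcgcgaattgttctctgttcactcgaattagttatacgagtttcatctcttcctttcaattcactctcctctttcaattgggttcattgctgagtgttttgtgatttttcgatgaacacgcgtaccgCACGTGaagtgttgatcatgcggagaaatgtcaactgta
mxl-3, rank 1524, chrX:13355037-13355237, minus strand: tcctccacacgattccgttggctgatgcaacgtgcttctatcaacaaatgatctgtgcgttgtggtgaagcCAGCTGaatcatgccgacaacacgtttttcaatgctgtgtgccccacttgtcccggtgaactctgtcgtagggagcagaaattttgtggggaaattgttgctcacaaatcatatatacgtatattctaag

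At the mdl-1 summits of ranks 62, 170 and 2248 the capitals are CACGTG, 30.5, 46.5 and 33.5 bp upstream of the summit, counted to the middle of the E-box. At mml-1 rank 639, CACGTG lies 38.5 bp downstream. The hlh-30 summit of rank 313 has CAGCTG 42.5 bp to its upstream side and CACGTG 51.5 bp to its downstream side, so that an E-box of each type lies beside it. At rank 601 of the same gene CAGCTG is 52.5 bp upstream, and at mxl-3 rank 595 CACGTG is 64.5 bp downstream. CAGCTG also lies 26.5 bp upstream of mxl-3 rank 1524.

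**Figure D1:**
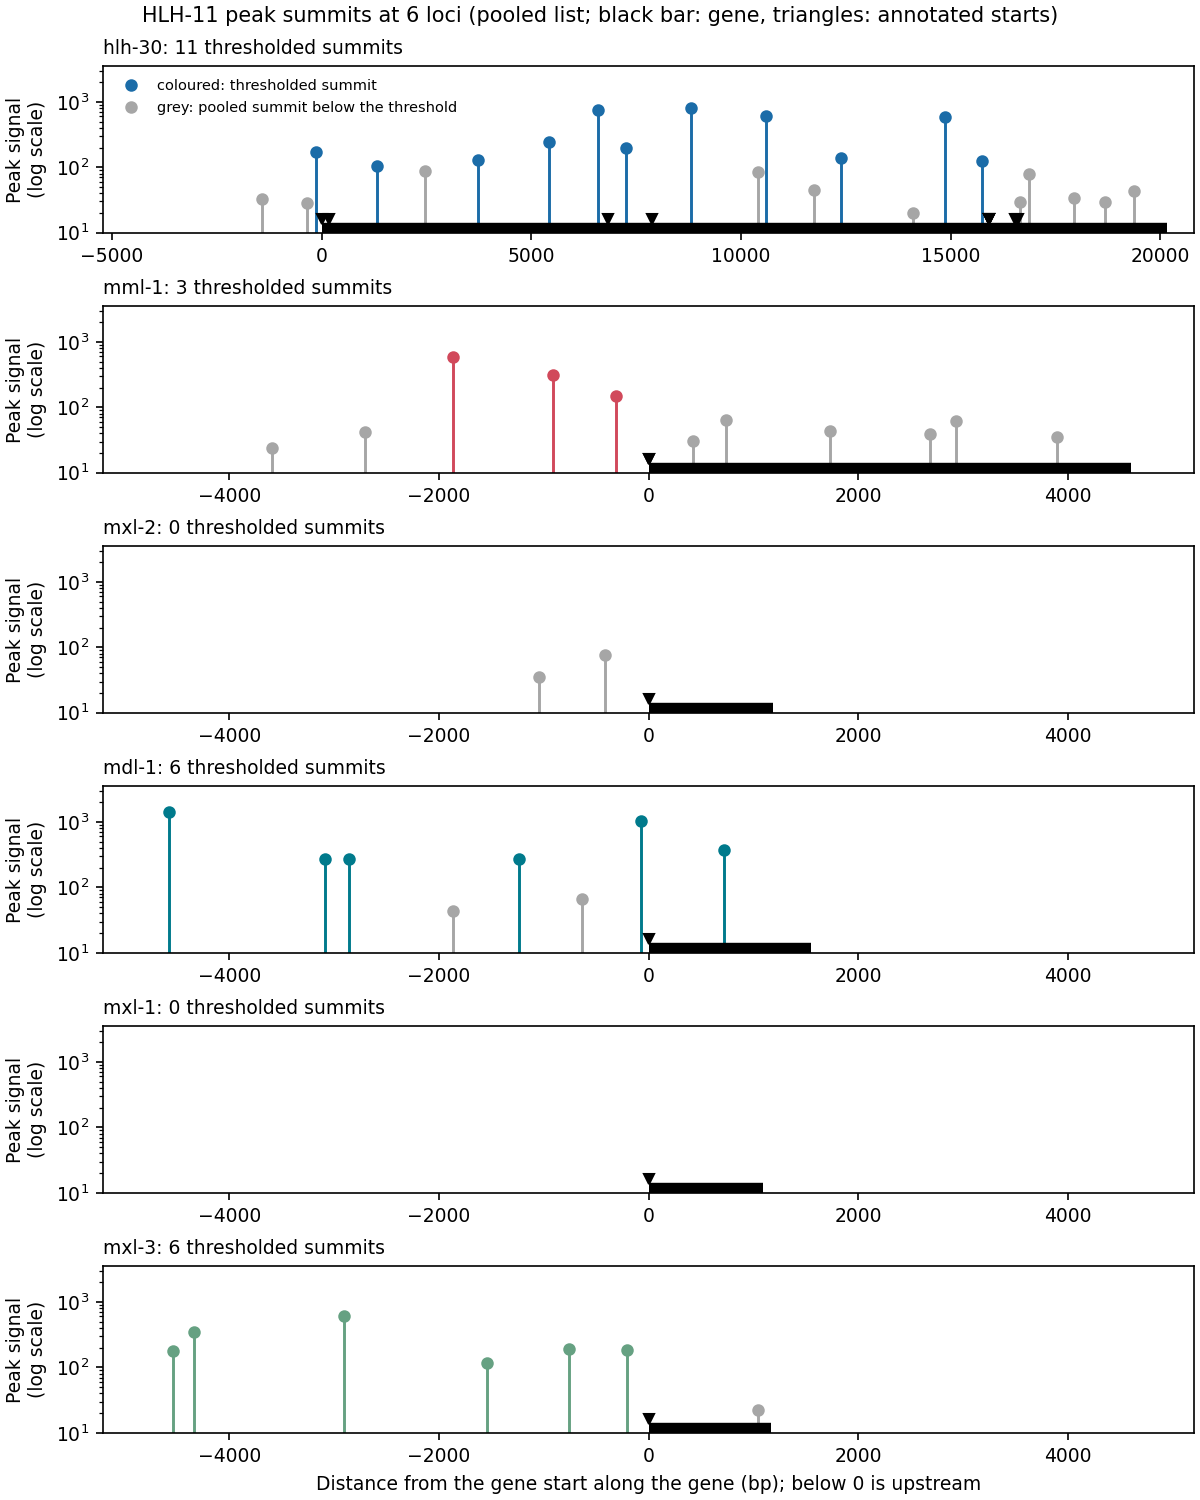
Peak signal in the pooled list (log scale) at each summit against its distance from the gene start along the gene (bp), for the 6 genes. Coloured points are thresholded summits, grey points weaker pooled summits, the black bar is the gene and triangles are annotated starts. The thresholded summits of hlh-30 are spread over the gene body and those of mml-1 and mxl-3 lie upstream, with weaker pooled summits inside both genes, and mxl-1 has no summit of either kind.

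hlh-30 carried the most summits of the family, most of them in introns between its alternative starts. The gene (WBGene00020930, chromosome IV, 4014793 to 4034951, minus strand, ce11) has 13 annotated transcripts with 10 distinct starts, spread over 16620 bp. Of its 11 thresholded summits, 10 lay in introns of the gene and 1 in intergenic sequence upstream. Only 12 protein-coding genes, hlh-30 included, had 11 or more summits. Its window is long, however, and per kb it had 0.437 summits, a density reached by 2.60% of genes.

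The strongest hlh-30 peak covered IV 4025917 to 4026326 with a signal of 801 (rank 313), its summit 926 bp inside the start of W02C12.3d.1. In the replicates' own lists it was at rank 471 (signal 289) in replicate 1 and rank 243 (signal 510) in replicate 2. The next, at IV 4028137 to 4028564, reached 755 (rank 363), and its summit stood 225 bp upstream of the shared start of W02C12.3b.1 and W02C12.3c.1. That peak ranked 312 in replicate 1 (signal 349) and 423 in replicate 2 (signal 409). Thus the order of the 2 tallest hlh-30 peaks differed between the replicates. Another pair was next in height. A peak at IV 4024161 to 4024585 (signal 608, rank 575) ranked 628 and 558 in replicates 1 and 2, with its summit 2713 bp inside the W02C12.3d.1 start. The peak at IV 4019888 to 4020251 (signal 596, rank 601) had its summit 1041 bp upstream of the start of W02C12.3f.1, which opens the group of short transcripts, and ranked 646 in replicate 1 and 601 in replicate 2. All 4 of these belong to the strongest 786 peaks, the upper end of the list, and 9 protein-coding genes, hlh-30 included, had 4 or more there.

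The outermost hlh-30 start had a much weaker peak. It stood at IV 4034878 to 4035301, 139 bp upstream of W02C12.3d.2, with a signal of 173 and rank 4144 (ranks 3853 and 4396 in replicates 1 and 2). A peak 156 bp upstream of W02C12.3f.1 was weaker still, with a signal of 126 and rank 5812, and ranked 5227 in replicate 1 and 6435 in replicate 2. The peaks of ranks 2711, 3592, 5253, 5589 and 6921 were intronic, with signals of 243, 194, 139, 131 and 103. The one at rank 6921 was among the strongest 7863 peaks of replicate 1 (rank 5454) but not of replicate 2, where it ranked 10450. Just under the threshold, whose lowest signal was 88.3, the pooled list held a further intronic summit at hlh-30 with rank 7866 and a signal of 88.3.

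mml-1 had 3 summits, all upstream of its start and all in intergenic sequence. The gene (WBGene00003378, III, 7370130 to 7374731, minus strand) has 2 transcripts that start 6 bp apart. Its tallest peak reached a signal of 580 (rank 639) at III 7376341 to 7376813, with its summit 1865 bp upstream, and ranked 651 in replicate 1 (signal 251) and 616 in replicate 2 (signal 336). Summits nearer the gene were lower: the one 914 bp upstream had 308 (rank 1892) and the one 309 bp upstream had 147 (rank 4938). Replicates 1 and 2 placed the first of these at ranks 1429 and 2326 and the other at 4335 and 6459. The gene body held pooled summits below the threshold only, the highest with a signal of 64.7 and rank 10093, 738 bp inside the start. In replicate 2 that summit had rank 5830 (signal 71.0), ahead of the thresholded one 309 bp upstream, and in replicate 1 no summit lay within 100 bp of it.

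mxl-2, which encodes the partner of MML-1, had no thresholded peak. The gene (WBGene00003510, III, 186949 to 188131, minus strand) is short, and the nearest thresholded summit to its start was 33750 bp away. The strongest pooled summit in its window, 414 bp upstream, had a signal of 76.9 and rank 8787, under the threshold. It had rank 7897 in replicate 1 and 11688 in replicate 2, both outside the strongest 7863. In all, the whole lists held 1 summit for mxl-2 in replicate 1 and 6 in replicate 2. The pooled summit lay nearer to the start of ubc-20, a gene of the ubiquitin-conjugating enzyme family that reads the other way, at 293 bp. A weak summit at this start was thus listed in both replicates and was not among the peaks that the authors kept.

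mdl-1 had the strongest peaks of the family. The gene (WBGene00003163, X, 6742351 to 6743899, plus strand) is 1549 bp long, with 1 transcript. The tallest, at X 6737375 to 6738089, reached a signal of 1424 (rank 62). It was at rank 52 in replicate 1 (signal 631) and at 71 in replicate 2 (signal 798). Its summit, 4571 bp upstream of mdl-1, was in intergenic sequence and slightly closer to the start of the divergent neighbour R03E9.2, at 4479 bp. The nearest protein-coding start of the other 25 summits was that of the member itself. The peak over the mdl-1 start itself covered X 6741571 to 6742553, with its summit 76 bp upstream, a signal of 1023 and rank 170. It ranked 189 and 173 in replicates 1 and 2, with signals of 426 and 600. Only 0.586% of protein-coding genes had a strongest summit at least as high as the one in the mdl-1 window.

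The other 4 mdl-1 summits were of middling height and close to each other in strength. An intronic summit 717 bp inside the gene had a signal of 366 (rank 1438), and its rank differed between the replicates, 989 in replicate 1 and 1878 in replicate 2. Summits 1232, 3091 and 2860 bp upstream had signals of 275, 274 and 274, with ranks 2248, 2264 and 2266. The last 2 stand 231 bp apart in adjoining peaks. The one at rank 2264 had a partner within 100 bp in replicate 2 (rank 1990) but not in replicate 1. There the closest strong summit, 2985 bp upstream of the gene at rank 2525, lay just past that distance and inside the same pooled peak. No mdl-1 summit was below the median signal of the whole list, 181. With 0.916 summits per kb, mdl-1 had a density that 13 protein-coding genes reached, itself included.

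mxl-1, which encodes the partner of MDL-1, had no summit in its window in any of the 4 lists. The gene (WBGene00003509, V, 11244839 to 11245926, plus strand) was 1 of the 28.6% of protein-coding genes for which this held. The nearest thresholded summit, with a signal of 209 and rank 3271, was 5457 bp upstream, just outside the window, and closest to the start of dvc-1. Among the summits just inside the 5000 bp limit were those of mdl-1 at 4571 bp and of mxl-3 at 4532 bp. The lists hold 30000 peaks per replicate, so a gene without a summit is one with none among those 30000.

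mxl-3 had 6 summits, all of them upstream. The gene (WBGene00003511, X, 13349639 to 13350804, minus strand) has 1 transcript. The tallest peak, at X 13353540 to 13353920, reached a signal of 600 (rank 595), with its summit 2906 bp upstream in intergenic sequence, and ranked 574 in replicate 1 (signal 266) and 621 in replicate 2 (signal 335). A second far peak at X 13355034 to 13355391 (signal 353, rank 1524) had its summit 4333 bp upstream and ranked 1917 in replicate 1 and 1301 in replicate 2. The peaks nearer the start were lower. The summits 760 and 208 bp upstream had signals of 193 and 183, and the one 1544 bp upstream had 117. The summit 760 bp upstream lay inside the annotated non-coding RNAs C49F8.8 and C49F8.9. The remaining summit, 4532 bp upstream (signal 181, rank 3928), was 199 bp from the one at 4333 bp and lay in nearly the same peak interval. At 0.973 summits per kb, mxl-3 had a density reached by 10 protein-coding genes, itself included.

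**Figure D2:**
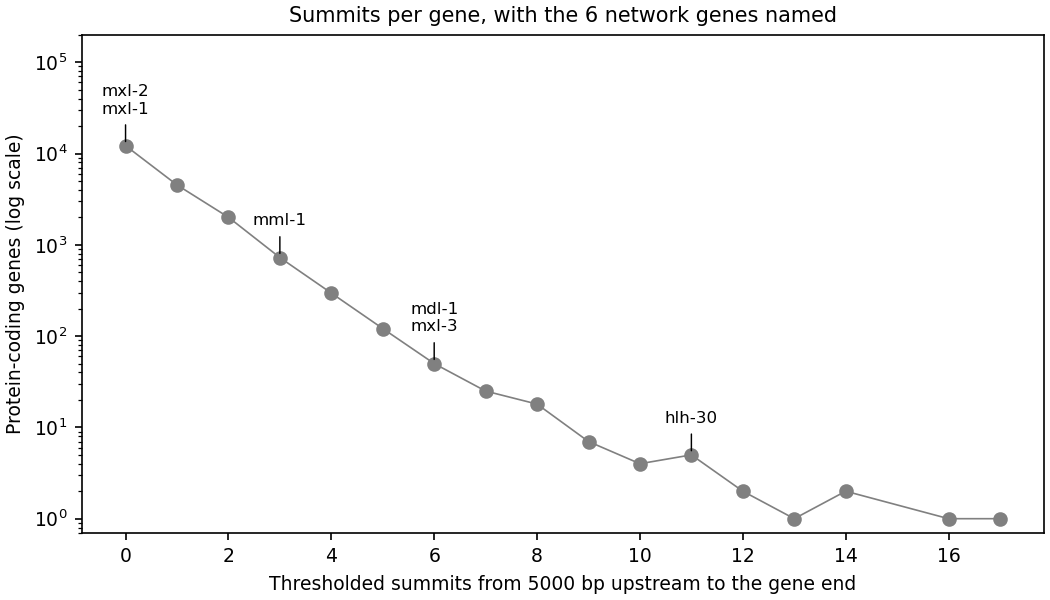
Number of protein-coding genes (log scale) against the number of thresholded summits between 5000 bp upstream and the gene end. The members stand at 0 (mxl-2 and mxl-1), 3 (mml-1), 6 (mdl-1 and mxl-3) and 11 (hlh-30), and 12183 genes have 0.

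Set beside all genes, the 4 members with peaks were high in both number and strength, while mxl-2 and mxl-1 had 0 thresholded summits. The median strongest signal of the 7790 genes with a thresholded summit was 229, and the 4 bound members had 801, 580, 1424 and 600 (hlh-30, mml-1, mdl-1 and mxl-3). A strongest signal at least as high was found at 2.43%, 4.90%, 0.586% and 4.54% of all protein-coding genes. At least as many summits were found at 0.0601% of genes for hlh-30, 6.30% for mml-1 and 0.581% for mdl-1 and for mxl-3. These shares are of all 19973 genes, of which 12183 had 0 thresholded summits, so among genes with a summit they would be larger. The hlh-30 count comes from a long window of 25159 bp. Within the members, 8 of the 26 summits were among the strongest 786, which make up 10% of the 7863 in the list. Windows of neighbouring genes overlap, and 1 summit can count for several genes, so these shares describe the genome-wide list and are no test.

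Both replicates held most of the member summits, with some changes of order between them. A replicate supports a summit here when any of its 7863 strongest peaks has its summit no more than 100 bp away. By that measure 24 of the 26 were supported by both replicates (92.3%), against 78.6% of all 7863 thresholded summits. The list was itself thresholded on these replicates, so such support is no independent check, and the 2 shares were not matched for rank. Each replicate by itself supported 25. The exceptions were the hlh-30 summit of rank 6921 in replicate 2 and the mdl-1 summit of rank 2264 in replicate 1. Over the 24, the higher rank number was a median 1.31 times the lower one, and at most 2.16 times, at the mdl-1 summit of rank 2266. Over the 6179 thresholded summits supported in both replicates that median was 1.23. The strongest summits of mml-1 and mxl-3 changed places between the replicates: mxl-3 was ahead in replicate 1 (574, against 651 for mml-1) and mml-1 in replicate 2 (616, against 621 for mxl-3). The strongest of mdl-1 was ahead of all other members in both (52 and 71), and that of hlh-30 was next (312 and 243, from different peaks of the gene). Read totals are not part of these lists, and the depth behind each replicate is unknown.

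**Figure D3:**
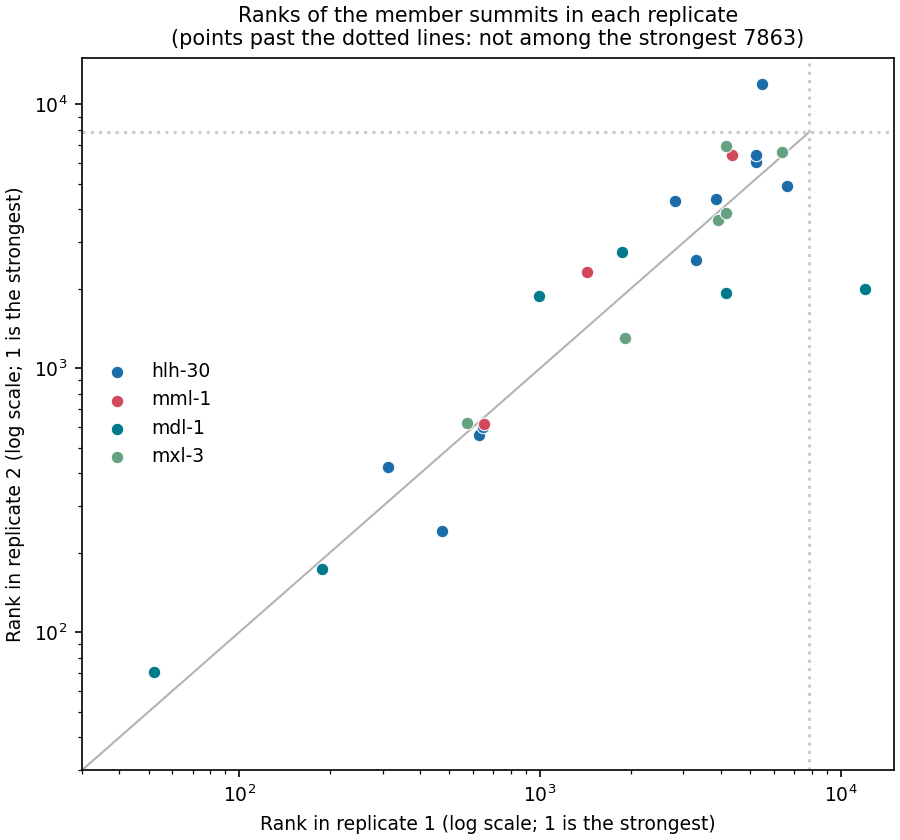
Rank of each member summit in replicate 2 against its rank in replicate 1 (both log scale, 1 is the strongest). The grey line marks equal ranks, and the 2 points past the dotted lines, drawn there at a fixed distance, are summits not found among the strongest 7863 peaks of a replicate. Most points lie close to the line, from mdl-1 at 52 and 71 downwards.

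E-boxes of any kind were counted at 3 distances. Within 50 bp of the summit, 12 of the 26 member summits (46.2%) had a CANNTG, against 44.1% of all thresholded summits. The share was 23.1% at the members within 25 bp, against 24.9% of all, and 57.7% within 100 bp, against 65.7% of all. Both named types were then counted apart. CACGTG was within 50 bp of 4 summits, 3 at mdl-1 and 1 at mml-1, or 15.4%, against 5.84% of all. CAGCTG was within 50 bp of 2 summits, at hlh-30 rank 313 and mxl-3 rank 1524, or 7.69%, against 4.34%. With 26 summits these shares rest on single summits, and no test was made. The other E-boxes near summits were CAACTG at hlh-30 rank 2711 and mml-1 rank 4938, CACATG and CAGATG together at hlh-30 rank 3592, CATATG at hlh-30 rank 5812, CAGATG beside CACGTG at mdl-1 rank 62, CACCTG at mdl-1 rank 1438, CAATTG at mxl-3 rank 595 and CAAGTG at mxl-3 rank 1524.

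The distance searched changed the CACGTG count. Around the pooled summits, none of the 26 had it within 25 bp, where 2.99% of all summits did. Within 100 bp, 10 had it (38.5%), where 9.59% of all did. At mdl-1 it was within 100 bp of 5 of 6 summits, at mml-1 of 2 of 3, at mxl-3 of 2 of 6 and at hlh-30 of 1 of 11. The added ones were 51.5 bp from hlh-30 rank 313, 59.5 bp from mml-1 rank 4938, 83.5 and 69.5 bp from mdl-1 ranks 1438 and 2264, and 64.5 and 93.5 bp from mxl-3 ranks 595 and 3621. CAGCTG within 100 bp added 1 summit, hlh-30 rank 601 at 52.5 bp, and was at 11.5% of member summits, against 7.36% of all. The hlh-30 peaks of ranks 363 and 575, among the tallest of the gene, had no E-box of any type within 100 bp.

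The summit position differed between lists, and single E-box calls with it. At the tallest hlh-30 peak the replicates put the summit 46 and 37 bp from the pooled one, both on its CACGTG side. With those summits it is CACGTG, not CAGCTG, that falls within 50 bp in both replicates. CACGTG was thus nearer to both replicate summits there than to the pooled one, and at mml-1 rank 639 nearer to the replicate 2 summit. CACGTG within 50 bp of the 3 mdl-1 summits of ranks 62, 170 and 2248, and CAGCTG at mxl-3 rank 1524, were found with the summits of both replicates. At mml-1 rank 639 CACGTG was within 50 bp of the replicate 2 summit but not of the replicate 1 summit. Summits with a GA repeat, GAGAGA on either strand, within 50 bp numbered 9 of 26 (34.6%, against 24.3% of all), among them hlh-30 ranks 363, 575 and 601. TGATAA, which contains the core of GATA-factor sites, was at 3 (11.5%, against 24.1%).

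**Figure D4:**
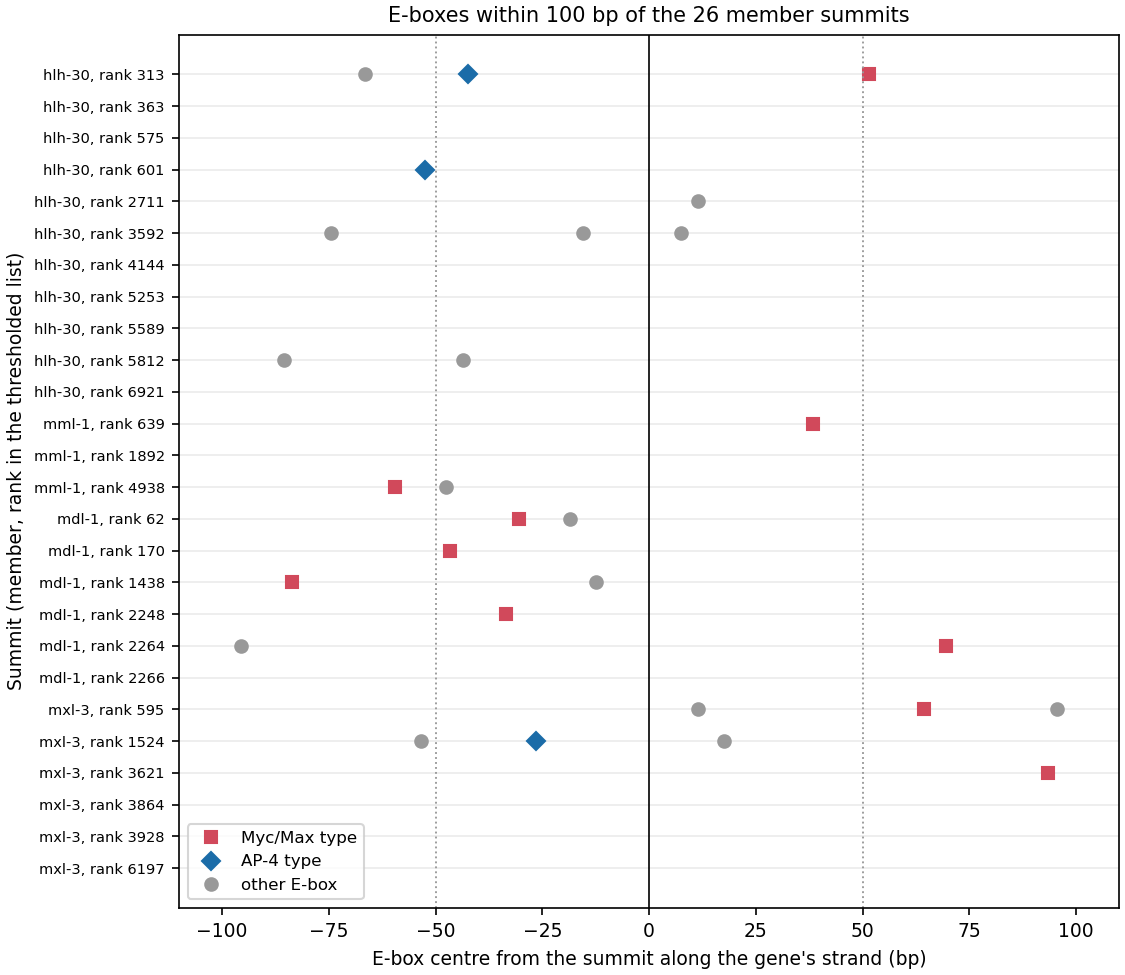
Position of each E-box centre relative to the summit, along the gene's strand (bp), for the 26 member summits, with dotted lines at 50 bp. Squares are the Myc/Max type, diamonds the AP-4 type and circles other E-boxes. The squares lie between 30.5 and 93.5 bp from the pooled summit, and 5 of the 6 mdl-1 summits have one.

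The genes around this network were read in the same window, in 4 lists with 42 genes in all, each set against the 39.0% of all protein-coding genes with a summit. That share was not matched to the listed genes for window length, and it was 31.5% among genes with windows of 6000 to 7000 bp. Of 12 genes of nutrient signalling and regulators that act with HLH-30 or with MML-1 and MXL-2, 10 had a peak (83.3%, median strongest signal 554). The strongest were at aak-2, the catalytic AMPK subunit (signal 1202, inside the gene, 972 bp from its start), and rheb-1, the GTPase that activates TOR (921, rank 231), whose summit is nearest to the start of spk-1. let-363, the TOR kinase, and daf-15, its Raptor partner, had 0 summits, while ragc-1 and raga-1, the Rag GTPases, had single weak ones (164 and 105). The ragc-1 summit was nearest to the start of Y24F12A.1. The raga-1 summit, nearest to the start of saps-1, was not among the strongest 7863 of replicate 1. In the flcn-1 and xpo-1 windows, too, the strongest summit was nearest to the start of another gene, F22D3.4 and uvs-1. A peak counted here thus need not lie closest to the listed gene. The FOXO gene daf-16, with which HLH-30 works in stress and longevity, had 16 summits, the highest with a signal of 900.

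Of the 5 lysosomal lipase genes 3 had peaks (60.0%). lipl-1 and lipl-3, which MXL-3 and HLH-30 are known to control, had 0, lipl-2 had 3 summits and lipl-5 had 4. The lipl-2 window held a peak of rank 8 (signal 2382), 1528 bp upstream and nearest to the start of ztf-7, and the strongest at lipl-5 (448) was 4348 bp upstream and nearest to ZK6.8, so neither lies closest to the lipase gene. lipl-4 had 1 weak summit (106), nearest to dre-1 and not among the strongest 7863 of replicate 2. Autophagy and lysosome genes had peaks at 15 of 19 (78.9%, median strongest signal 441), led by the LC3 homologue lgg-2 (1906, rank 23) and sqst-1, the p62 homologue (1718, rank 31). The sqst-1 summit was 1683 bp upstream and nearest to the start of mrpl-51, and the atg-7 summit was nearest to that of klc-1. atg-4.1, atg-16.2, vps-11 and cup-5 had 0. In the longevity pathway of germline loss 3 of 6 genes had peaks, with daf-12, a steroid hormone receptor gene, highest (819, rank 303) before nhr-80 (264). The strongest kri-1 summit (158) was nearest to the start of col-63 and not among the strongest 7863 of replicate 1, and glp-1, daf-9 and tcer-1 had 0. These lists were drawn up with earlier results of these data known, and their shares are descriptions.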

How the data were processed

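HLH-11 ChIP-seq peak lists from 2 biological replicates of whole L4 larvae served as data: a list for each replicate and a pooled list, of 30000 peaks each, and a list that the authors thresholded by irreproducible discovery rate, per the file names (7863 peaks, found unchanged as the strongest 7863 of the pooled list). Per the labels, chromatin was sonicated to 200 to 800 bp and the build is ce11. The aligner, peak caller and settings were not given in the sources used here. The signal of each peak is a value deposited by the authors, used only to rank and describe peaks within a list. The summit is the peak start plus the deposited offset. No control library was analysed here.

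Genes came from the Ensembl release 115 annotation and sequence from the RefSeq assembly, both WBcel235. All peaks lay within its chromosomes, and the last peak on X ends at its length of 17718942 bp. The window ran from 5000 bp upstream of the gene start to the gene end. E-boxes were searched on both strands within 50 bp of the summit (101 bases), and a summit was matched to a replicate within 100 bp among its strongest 7863. With 1 group there is no test, and the 2 replicates share the protocol, so agreement between them does not cover other strains or stages. The functions were tested on planted peaks. Python 3.11.15, numpy 2.4.6 and matplotlib 3.10.9 were used. The members, the 4 lists, the rule for named genes (all members, the nearest gene of a described summit and the 2 strongest of each list) and the alternatives were chosen with earlier results of these data known. Genes named beyond that rule were chosen after their values were seen.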

Additional observations from a re-analysis of the deposited data

How the results depend on the processing

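The count of 4 bound members was the same under all 7 alternatives: the strongest 3931 peaks, each replicate's own strongest 7863, windows of 2000 bp upstream or around the starts only, the nearest start only, and close summits dropped. The number of member summits was 9 with windows of 1000 bp upstream to 500 bp downstream of any start, and it stayed between 19 and 29 under the others. The support in both replicates was 14 summits with only the strongest 3931 peaks of each replicate searched, and 20 to 25 under the other settings. E-box counts moved with the search distance from the pooled summits. Within 25 bp, 6 summits had any E-box, 0 had CACGTG and 0 had CAGCTG, and within 100 bp 10 had CACGTG. With the summits of a single replicate, CACGTG was at 5 to 7 summits and CAGCTG at 1 in each replicate. Of the 42 other network genes, 24 had a peak with the window around starts and 25 with the strongest 3931 peaks, against 31. The share of all protein-coding genes with a peak is not given under these alternatives, so the counts have no background beside them. The unknown depth limits what the absence of a peak at mxl-1 and mxl-2 shows.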
